A study of Mus musculus with 6 samples.

Results

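The genes described here carry the cyclic AMP (cAMP) signal from the cell membrane to the nucleus in neurons: the adenylyl cyclases Adcy1, Adcy2, Adcy8 and Adcy9, the protein kinase A (PKA) catalytic subunits Prkaca and Prkacb, the PKA regulatory subunits Prkar1a, Prkar1b and Prkar2b, and the transcription factor Creb1. They were chosen by name, with earlier results of these data known. All 10 were found among the 55411 annotated genes of the deposited tables and among the 16129 genes tested. Poly(A)-selected RNA of mouse hippocampus was sequenced in 6 libraries, 3 from a vehicle control group and 3 from a group labelled as exposed to clothianidin (CLO), an insecticide of the neonicotinoid class, whose targets are nicotinic acetylcholine receptors. The series asks about exposure of fathers: male C57BL/6N mice received CLO at 50 mg/kg/day, a level described as having no observed adverse effect. The extraction protocol names offspring as the source of the hippocampus, while the group labels give only vehicle or exposure to CLO, so the libraries are treated here as offspring of the respective males. The strain of the mothers, the sex, age and litter of the animals and the length of dosing are not given in the labels, and nothing states that libraries come from separate litters. The spread behind each p-value is that between single libraries and may be partly technical.

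Adenylyl cyclases make cAMP from ATP, and their isoforms differ in what drives them. Adcy1 and Adcy8 are stimulated by calcium and calmodulin and are known in the hippocampus for coupling synaptic calcium entry to long-lasting plasticity and memory. Adcy2 responds to G-protein beta-gamma subunits together with the stimulatory G protein, and Adcy9 is widely expressed in the brain and responds little to the plant compound forskolin that activates the other membrane cyclases. PKA at rest is a complex of regulatory and catalytic subunits, and cAMP binding to the regulatory subunits frees catalytic activity. Type I regulatory subunits (Prkar1a, Prkar1b) are largely cytosolic, and type II subunits (Prkar2a, Prkar2b) are mostly held at membranes and synapses by A-kinase anchoring proteins. Free catalytic subunits phosphorylate, among many targets, the protein made from Creb1, which binds the cAMP response element (CRE) in promoters.

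Libraries held 25053948 to 26603386 counts on annotated genes in the control group and 19502748 to 21041621 in the CLO group, so every CLO library was shallower than every control library. The 8 markers of CA1 pyramidal neurons summed to 536 to 640.1 CPM (counts divided by the TMM-scaled library size) in control and 622 to 663 CPM in CLO, and the 8 markers of dentate granule cells to 209 to 357 and 259 to 337 CPM, so hippocampal neurons were present in every library. Control replicates 1 and 2 also held 334 and 126 counts over 9 spermatid transcripts, against 2 to 6 counts in each other library. In the quasi-likelihood fit of edgeR, 0 of the 16129 genes passed the adjusted threshold of 0.05 (percent called 0) or by limma-voom, and DESeq2 called 204, while 2167 genes had an unadjusted p under 0.05 by edgeR. In bulk tissue, fewer cells that express a gene and less RNA per cell cannot be told apart.

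Across genes, levels per transcript length (TPM as deposited, which is scaled to transcript length and library total) differed widely among the 10 genes. In control, Prkar1b had the highest level, at 422 ± 15.2 TPM (SD, n = 3), followed by Prkar1a at 313 ± 11.6 TPM and Prkaca at 168 ± 15.0 TPM. These 3 levels were separated by far more than their SD. Adcy2 (74.2 ± 7.93 TPM), Prkacb (73.2 ± 5.97 TPM) and Adcy1 (66.0 ± 9.94 TPM) came next and were not separated beyond their spread. Adcy9 was at 22.2 ± 5.04 TPM and Prkar2b at 15.3 ± 1.87 TPM, and Adcy8 (5.63 ± 1.496 TPM) and Creb1 (4.70 ± 0.645 TPM) were lowest and overlapped. Among all 10 cyclase genes of the mouse, Adcy2 made up 31.4% and Adcy1 27.9% of the control TPM and Adcy8 only 2.38%, while Adcy5, which is not among the 10 genes, made up 15.6%. Prkar1a and Prkar1b together supplied nearly all regulatory subunit transcripts, at 40.6% and 54.7%, and Prkar2b 1.98%.

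**Figure D1:**
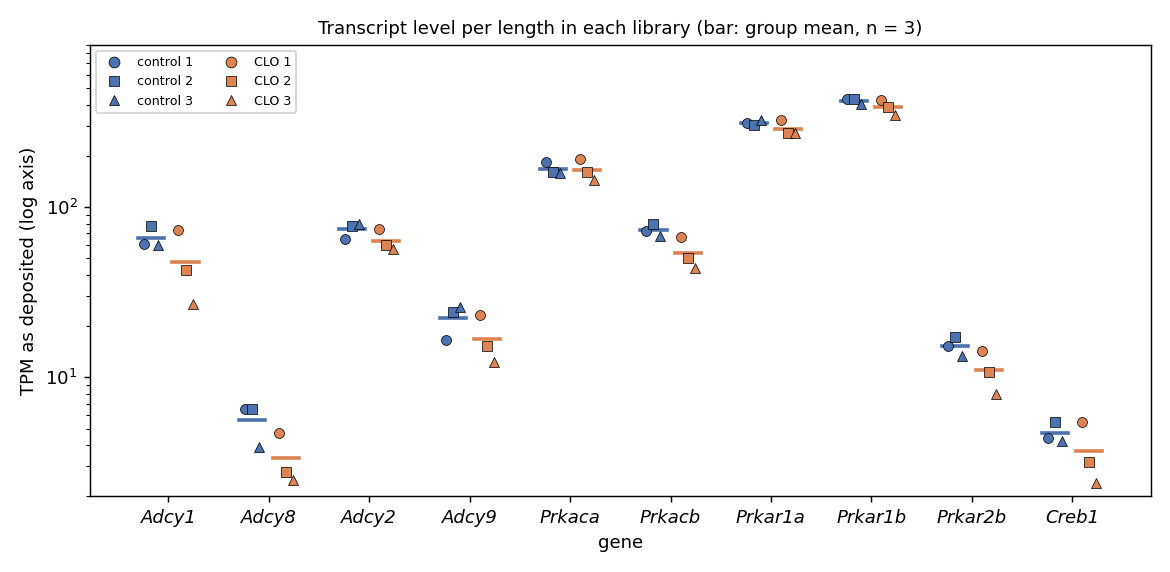
Level of each gene in each library, in deposited TPM on a log axis, with control in blue and CLO in orange and a bar at each group mean (n = 3). Prkar1b and Prkar1a are highest and Adcy8 and Creb1 lowest in both groups, and CLO replicate 1 (circle) lies near the controls for several genes while CLO replicate 3 (triangle) is often the lowest.

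Between the groups, 8 of the 10 genes had lower and 2 higher levels in CLO in the edgeR fit, where 51.8% of all genes tested were lower. With adjustment over all genes, 0 of the 10 passed by edgeR, by limma-voom or by DESeq2, which called 1.26% of all genes. With no filter on low counts, where 2.56% of genes passed, 1 of the 10 did (Adcy8), and with sample quality weights, where 21.5% passed, 4 did (Adcy1, Adcy8, Adcy9 and Prkacb). The median log2 fold change (CLO over control) of the 10 was -0.29, against -0.01 over all genes tested. Adcy8, Prkacb and Prkar2b were lower at an unadjusted p under 0.05, where 7.26% of all genes tested were lower at that level. That count was 1 (Adcy8) when control replicate 2, control replicate 3, CLO replicate 2 or CLO replicate 3 was left out. Over all 16129 genes, 847, 2318, 957 and 908 were at that level in either direction in those fits, in that order. The count was 5 without CLO replicate 1 and 4 without control replicate 1, where 3522 and 3960 of all genes were at that level. With all libraries 2167 genes were. Values in the following paragraphs are CPM scaled by TMM factors when libraries are compared, because the TPM scale itself differed between the groups. On the TPM scale the median tested gene was lower in CLO, at a log2 ratio of -0.13, 67.7% of tested genes had a lower mean in CLO, and all 10 genes did, 7 of them by more than that median.

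**Figure D2:**
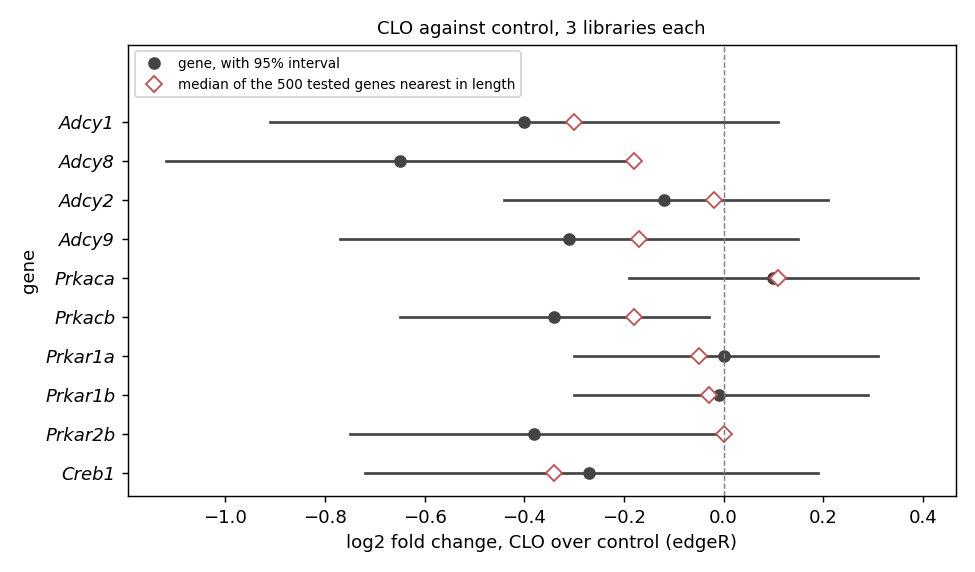
Log2 fold change of each gene, CLO over control, with its 95% interval (edgeR, 3 libraries per group), and the median log2 fold change of the 500 tested genes nearest in length (open diamonds). Adcy8, Prkacb and Prkar2b have intervals below 0, and those of the other genes include 0.

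Both calcium-stimulated cyclases of the set had lower mean values in CLO. Adcy8 stood at 21.5, 22.3 and 14.1 CPM in control replicates 1, 2 and 3 and at 15.4, 10.9 and 10.6 CPM in the CLO replicates. Control replicates 1 and 2 were thus high and control replicate 3 lay below CLO replicate 1, so that the groups overlapped. The log2 fold change was -0.65 ± 0.22 (SE), a level 36.4% lower, with an unadjusted p of 0.0108 and an adjusted p of 0.291 by edgeR with Benjamini-Hochberg adjustment. Against control replicate 3 alone the log2 fold change was -0.21. Adcy8 lies on chromosome 15 from 64568933 to 64794145 (GRCm39), on the minus strand, with a deposited length of 8152 bp. Its total was 207 to 596 counts per library.

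Adcy1 was read at 305, 410.0 and 335 CPM in the control replicates and at 366, 257 and 173 CPM in the CLO replicates. CLO replicate 1 was above 2 of the controls and CLO replicate 3 was far below all of them. The log2 fold change was -0.40 ± 0.23 (SE), with a 95% interval from -0.91 to 0.11 and an adjusted p of 0.454 by edgeR. It was -0.70 without CLO replicate 1 and -0.17 without CLO replicate 3. The gene spans 7013489 to 7128506 on chromosome 11.

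Adcy2 and Adcy9 are not stimulated by calcium and calmodulin in this way. Adcy2 (chromosome 13, 68768162 to 69147660) was at 111, 138 and 149 CPM in control and at 124, 121 and 123 CPM in CLO. The 3 CLO libraries were nearly equal and lay within the control range, with a log2 fold change of -0.12 and a 95% interval from -0.44 to 0.21. Adcy9 (chromosome 16, 4105393 to 4238362) was at 52.1, 80.5 and 90.3 CPM in control and at 72.3, 57.4 and 49.8 CPM in CLO. Here control replicate 1 was as low as the lower CLO libraries, and the log2 fold change of -0.31 ± 0.21 (SE) became -0.52 without control replicate 1 and -0.15 without control replicate 3. As a share of all cyclase TPM, the calcium-stimulated isoforms Adcy1, Adcy3 and Adcy8 made up 39.9% ± 2.49 in control and 37.6% ± 4.39 in CLO (SD, n = 3). The shares overlapped (exact permutation p = 0.7, two-sided; with 3 libraries against 3 the smallest possible is 0.1).

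Of the catalytic subunits of PKA, Prkacb had lower and Prkaca slightly higher mean CPM in CLO. Prkacb, which encodes the beta catalytic subunit, was at 272, 310.5 and 278 CPM in control and at 247, 223 and 208 CPM in CLO. Every CLO library was below every control library, which held in that direction for 6.70% of all genes tested. The log2 fold change was -0.34 ± 0.14 (SE), a level 21.1% lower, with an unadjusted p of 0.0321 and an adjusted p of 0.347 by edgeR. Prkaca, which encodes the alpha catalytic subunit, was at 188, 171 and 177 CPM in control and at 194, 193 and 189 CPM in CLO. Its CLO libraries were all above the controls, by a very small margin at the nearest pair, and 7.84% of all genes tested showed no overlap in that direction. The log2 fold change of Prkaca was 0.10, with a 95% interval from -0.19 to 0.39 and an adjusted p of 0.74 by edgeR. On the TPM scale its mean was 168 ± 15.0 in control and 166 ± 24.4 in CLO, so the sign of this small difference depends on the scale. Prkacb lies on chromosome 3 from 146435329 to 146518745 and Prkaca on chromosome 8 from 84699622 to 84723072.

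As a share of catalytic subunit transcripts, a ratio within each library that does not depend on library scaling, Prkacb made up 28.2%, 33.1% and 30.0% of TPM in the control replicates and 25.7%, 23.9% and 23.1% in the CLO replicates. The groups did not overlap, with means of 30.4% ± 2.45 and 24.3% ± 1.32 (SD, n = 3). The difference of -6.15 percentage points had an exact permutation p of 0.1 (two-sided), the smallest that 3 against 3 allows, and an adjusted p of 0.4 over the 4 ratios tested. With each library left out in turn the difference ran from -4.83 to -7.25 percentage points. Its sign could not change, because the groups did not overlap. The 2 genes differ in length, at 9255 bp for Prkacb and 2521 bp for Prkaca. Their log2 fold changes differed by -0.44, the medians of the 500 genes nearest in length to each by -0.29, and their log2 fold changes by -0.16 after each library's trend with length was removed.

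**Figure D3:**
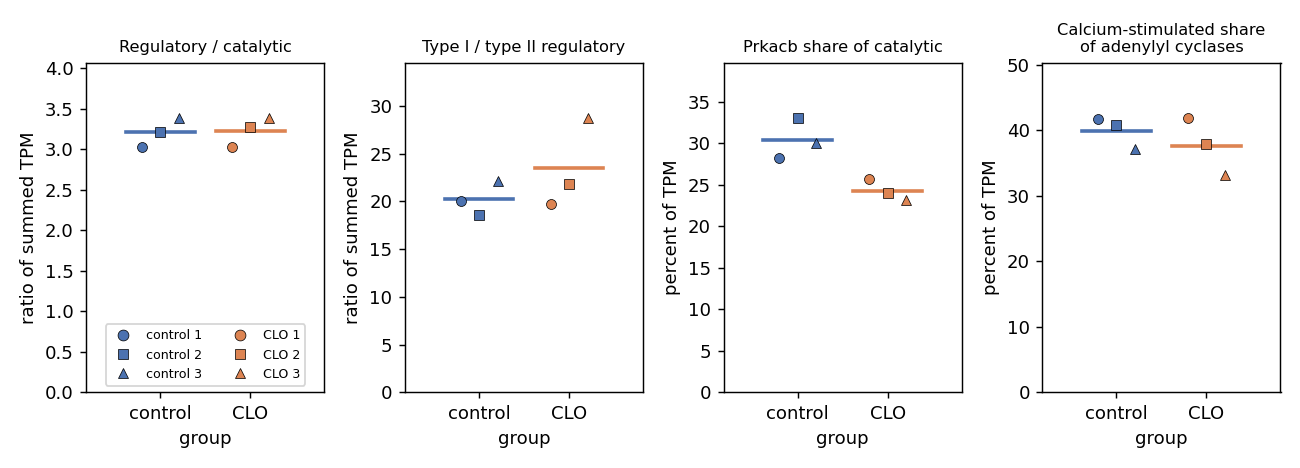
Ratios and shares of summed TPM in each library, with a bar at the group mean (n = 3): regulatory over catalytic subunits, type I over type II regulatory subunits, Prkacb as percent of catalytic transcripts, and Adcy1, Adcy3 and Adcy8 as percent of cyclase transcripts. The Prkacb share is 28.2% to 33.1% in control and 23.1% to 25.7% in CLO, and the groups overlap in the other panels.

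The major regulatory subunits had nearly equal levels in both groups. Prkar1a, the ubiquitous type I alpha subunit, was at 626, 637 and 721 CPM in control and at 644, 647 and 699 CPM in CLO. Prkar1b, the type I beta subunit typical of neurons, was at 747, 780.4 and 772 CPM in control and at 729, 795 and 766 CPM in CLO. The groups overlapped for both genes. Their 95% intervals of the log2 fold change ran from -0.30 to 0.31 for Prkar1a and from -0.30 to 0.29 for Prkar1b. Prkar1a lies on chromosome 11 from 109540231 to 109560482 and Prkar1b on chromosome 5 from 139003061 to 139135756.

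Prkar2b, the type II beta subunit enriched in brain, was at 23.8, 27.8 and 22.9 CPM in control and at 21.9, 19.7 and 15.9 CPM in CLO. Every CLO library was below every control library in CPM, which held in that direction for 6.70% of all genes tested. On the TPM scale the groups overlapped, with CLO replicate 1 at 14.2 and control replicate 3 at 13.4. The log2 fold change was -0.38 ± 0.17 (SE), a level 22.9% lower, with an unadjusted p of 0.0474 and an adjusted p of 0.367 by edgeR. It was -0.39 after the length trend was removed and ran from -0.48 to -0.26 with 1 library left out. Prkar2b lies on chromosome 12 from 32008475 to 32111295, with a deposited length of 3844 bp. The ratio of type I to type II regulatory TPM, with Prkar2a counted, was 20.2 ± 1.75 in control and 23.4 ± 4.72 in CLO (SD, n = 3; exact permutation p = 0.5, two-sided), and its highest value, 28.8, was that of CLO replicate 3. The ratio of all regulatory to all catalytic TPM was 3.21 ± 0.182 and 3.23 ± 0.182 (exact permutation p = 0.7, two-sided). The groups' ratios differed by less than the spread of the libraries. In CPM, Prkacb and Prkar2b were both lower in each CLO library than in each control library. Of control regulatory TPM, Prkar2b made up only 1.98%.

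Creb1, the nuclear end of the pathway, was at 24.8, 31.8 and 26.1 CPM in control and at 30.4, 21.0 and 17.2 CPM in CLO. CLO replicate 1 lay within the control range and CLO replicates 2 and 3 below it. The log2 fold change was -0.27 ± 0.21 (SE), with a 95% interval from -0.72 to 0.19 and an adjusted p of 0.56 by edgeR. It was -0.52 without CLO replicate 1, -0.15 without control replicate 2, -0.10 without CLO replicate 3 and 0.03 after the length trend was removed. The gene spans 64571804 to 64643707 on chromosome 1, and its deposited length of 13865 bp is the longest of the set.

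Because CREB acts through the CRE, the promoters of the genes were searched for it in RefSeq sequence (GRCm38.p6, not the build of the gene positions above; 250 bases before to 50 after each annotated start). The search used the palindrome TGACGTCA and the half-site TGACG on both strands (CGTCA on the other), and a half-site within a palindrome was not counted again. The table held 22 windows for 9 of the 10 genes. The palindrome was in 1.79% of all 32851 windows and in at least 1 window of 3.49% of the 11389 tested genes with a window, and the half-site or the palindrome in 20.8% and 34.3%. Among the 9 genes, 1 had the palindrome (Prkar1a) and 5 had either form (Prkar1a, Prkar1b, Prkaca, Prkacb and Adcy9), and genes with more annotated starts had more windows. The Prkar1a window that holds the palindrome 49 bases before the start (position -49) and the first windows of the 2 catalytic subunit genes, which form the pair compared above, are shown 5′ to 3′ on the gene's strand, with CRE palindromes and half-sites in capitals.
Prkar1a, chr11:109650699-109650998, plus strand: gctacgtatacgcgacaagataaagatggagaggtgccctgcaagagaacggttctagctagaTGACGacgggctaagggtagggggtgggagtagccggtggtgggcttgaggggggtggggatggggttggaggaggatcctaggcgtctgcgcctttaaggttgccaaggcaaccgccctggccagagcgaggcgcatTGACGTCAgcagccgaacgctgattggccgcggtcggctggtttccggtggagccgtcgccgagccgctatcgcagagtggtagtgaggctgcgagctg
Prkaca, chr8:83972728-83973027, plus strand: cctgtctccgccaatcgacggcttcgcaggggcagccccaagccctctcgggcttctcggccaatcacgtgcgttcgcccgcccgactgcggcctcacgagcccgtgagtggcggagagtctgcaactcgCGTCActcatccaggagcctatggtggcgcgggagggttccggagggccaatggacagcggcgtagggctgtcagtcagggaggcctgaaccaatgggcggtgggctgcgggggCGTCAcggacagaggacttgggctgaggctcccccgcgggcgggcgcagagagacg
Prkacb, chr3:146812897-146813196, minus strand: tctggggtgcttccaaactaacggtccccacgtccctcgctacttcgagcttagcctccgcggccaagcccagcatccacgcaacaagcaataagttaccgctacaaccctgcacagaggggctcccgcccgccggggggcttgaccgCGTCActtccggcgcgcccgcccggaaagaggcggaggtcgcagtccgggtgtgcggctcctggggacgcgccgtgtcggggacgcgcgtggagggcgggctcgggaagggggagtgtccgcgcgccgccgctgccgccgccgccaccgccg
Prkaca has 2 half-sites in its window, at -120 and -6, and Prkacb has 1, at -102. The windows describe letters only, and binding of CREB was not measured.

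The 10 genes differ in length, and the fold changes of all genes followed length. Of the 10, 5 (Adcy1, Adcy8, Adcy9, Prkacb and Creb1) are among the longest 20.0% of tested genes (7597 bp and more), where the median log2 fold change was -0.25 and 20.0% of genes were lower at an unadjusted p under 0.05. Among the shortest 20.0% (up to 2010 bp) the median was 0.27. Of the 10, 7 lay below the median of the 500 genes nearest in length. Adcy1 (-0.40) and Creb1 (-0.27) lay close to their medians, which were -0.30 and -0.34. Adcy9 (-0.31) and Prkacb (-0.34) lay somewhat below theirs, which were -0.17 and -0.18. Adcy8 at -0.65 and Prkar2b at -0.38 lay farther from theirs, which were -0.18 and 0.00. After the trend of each library with length was removed, Adcy8 was at -0.50 and Prkar2b at -0.39 (unadjusted p = 0.0236 and 0.0310 by edgeR), with adjusted p-values of 0.465 and 0.472, and Prkacb at -0.15 (unadjusted p = 0.205).

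**Figure D4:**
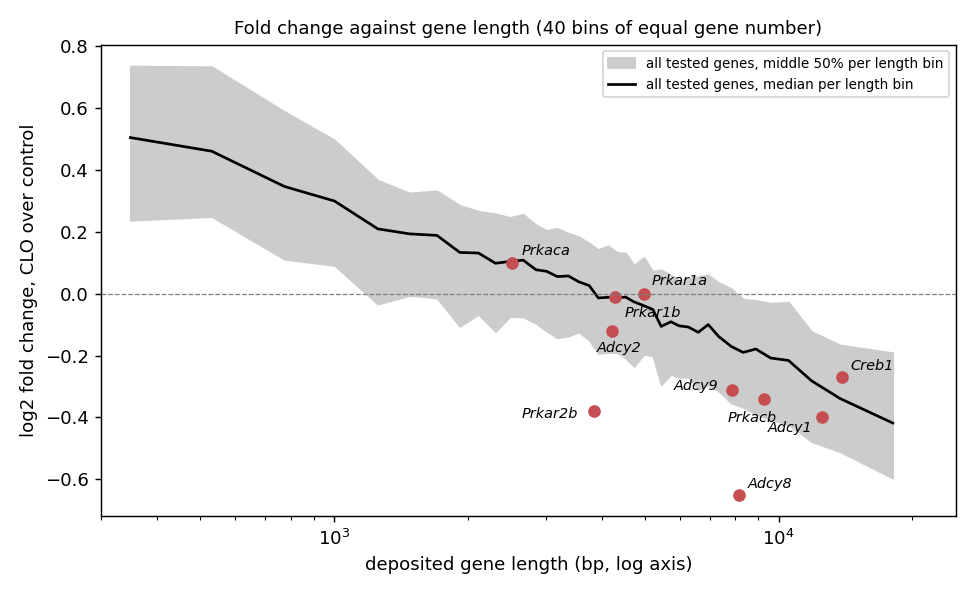
Log2 fold change, CLO over control, against deposited gene length in bp on a log axis, with the median (line) and the middle 50% (grey) of all tested genes in 40 length bins and the 10 genes as red points. Adcy8 (-0.65) and Prkar2b (-0.38) lie below the grey band and the other 8 genes lie within it.

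CLO replicate 3 was the lowest of the 6 libraries for 6 of the 10 genes (Adcy1, Adcy8, Adcy9, Prkacb, Prkar2b and Creb1). The slope of log2 CPM on log2 gene length over all tested genes ran the same way in the CLO group, at 0.019, -0.097 and -0.146 in CLO replicates 1, 2 and 3, and was 0.008, 0.141 and 0.076 in the control replicates. Markers of the adjoining neocortex followed this order in the CLO group too. All 12 of 12 had lower mean values in CLO than in control, where 51.8% of all genes tested were lower. At an unadjusted p under 0.05, 7 were lower, against 7.26% of all genes tested and 20.0% of the longest 20.0%. The list holds long genes, such as Cux1 (20129 bp) and Satb1 (19210 bp), and shorter ones. Of the 7, Cux1, Cux2, Rasgrf2, Whrn and Mef2c are among the longest 20.0% of tested genes. Scnn1a (4298 bp) and Rspo1 (1938 bp) are not. Rspo1 was low, at 4.25, 1.68 and 1.04 CPM in the control replicates and 0.787, 0.833 and 0.970 CPM in the CLO replicates. The summed level of the markers was 349 to 554 CPM in control and 249 to 367 CPM in CLO, with none at 0 counts. Their mean deviation from the 6-library mean was 0.59, 0.45 and -0.06 log2 units in the control replicates and -0.08, -0.37 and -0.54 in the CLO replicates. Control replicate 3, the control with the lowest neocortical markers, was the lowest control for Adcy8 (14.1 CPM) and Prkar2b (22.9 CPM). For Adcy1, Adcy9, Prkacb and Creb1 the lowest control was replicate 1, at 305, 52.1, 272 and 24.8 CPM. Interneuron (GABAergic) markers had lower values in 9 of 9 cases, with summed levels of 668 to 952 CPM in control and 640.0 to 742 CPM in CLO and none at 0 counts. Markers of CA2 and CA3 pyramidal neurons were higher in 8 of 8 tested genes, at 432 to 515 and 587 to 688 CPM. Retrohippocampal cortex and subiculum markers, of which 4 of 6 tested were lower, had summed levels of 292 to 417 CPM in control and 208 to 307 CPM in CLO and mean deviations of 0.21, -0.34 and -0.71 in CLO replicates 1, 2 and 3. Markers of oligodendrocytes were lower in 8 of 8 (2864 to 4396 and 2432 to 3772 CPM) and those of their precursors in 6 of 6 (289 to 374 and 253 to 318 CPM), while microglial markers were higher in 7 of 8 (486 to 509 and 538 to 591 CPM). Astrocyte markers were divided, with 4 of 8 lower. The part of cell makeup in the values of the 10 genes was not tested.

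**Figure D5:**
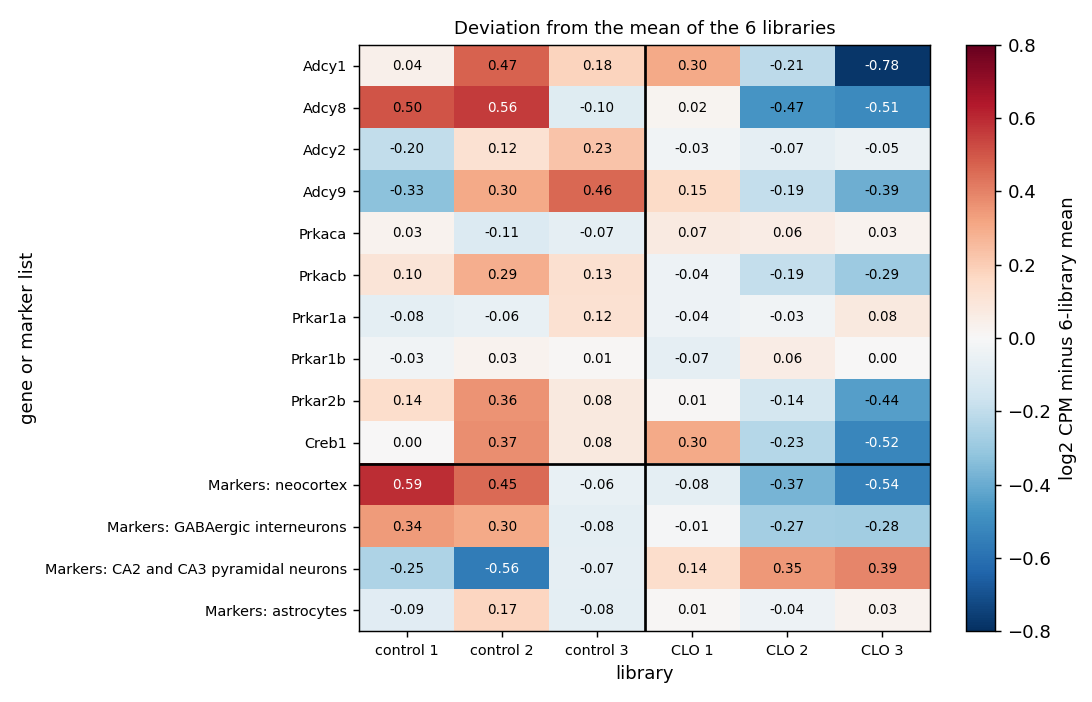
Deviation of log2 CPM from the mean of the 6 libraries for each gene and, under the line, the mean deviation of the markers of 4 cell classes. CLO replicate 3 has the lowest value for Adcy1 (-0.78), Creb1 (-0.52), Adcy8 (-0.51) and Prkar2b (-0.44), while Prkar1a and Prkar1b stay within 0.12 of the mean in every library.

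The rest of the cAMP pathway was read from 9 lists with 113 symbols, of which 106 genes were tested. Of these, 78 had lower and 28 higher values in CLO (median log2 fold change -0.16), and 0 passed over all genes by edgeR. At an unadjusted p under 0.05, 19 were lower (17.9%, against 7.26% of all genes tested) and 1 was higher (0.943%, against 6.18%). Their median length was 5246 bp, against 4237 bp for all genes tested, 24.5% of them were among the longest 20.0%, and 69 of the 106 lay below the median of the 500 genes nearest in length. The lists were chosen with earlier results of these data known, so the shares describe the lists and do not test the pathway.

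Upstream of the cyclases, 12 of 16 receptors coupled to the stimulatory G protein had lower values in CLO (median log2 fold change -0.16). Of these, 3 were lower at an unadjusted p under 0.05, against 7.26% of all genes tested. The median of the receptors was -0.05 with sample quality weights, -0.21 with the length trend removed and -0.25 to -0.11 with 1 library left out. Vipr1, a receptor for vasoactive intestinal peptide, was at 10.1 ± 1.004 CPM in control and 6.67 ± 1.17 CPM in CLO (SD, n = 3). Adcyap1r1, the receptor for the peptide PACAP and a strong activator of cyclases, was at 151 ± 27.2 and 113 ± 17.6 CPM. The dopamine receptor gene Drd1 was low in both groups, at 3.09 ± 0.914 and 1.90 ± 0.615 CPM. The G-protein subunits themselves were divided, with 8 of 14 lower (median -0.04) and none at an unadjusted p under 0.05. By their p, Gnal, an alpha subunit that stimulates cyclases, was at 74.4 ± 18.4 and 56.1 ± 11.5 CPM, and Gnao1, the abundant alpha subunit of neuronal Go, at 669.7 ± 93.1 and 542 ± 62.7 CPM, came first. Gnb5, a beta subunit, was next and had a higher mean in CLO, at 122 ± 11.9 and 138 ± 10.7 CPM. Of 5 other cyclases tested, 4 had lower values (median -0.26) and 0 reached an unadjusted p under 0.05, the smallest p being that of Adcy5, a calcium-inhibited isoform, at 112 ± 21.3 and 89.4 ± 14.0 CPM. Adcy7 was at 1.36 ± 0.637 and 0.926 ± 0.266 CPM and Adcy6 at 20.3 ± 5.33 and 16.9 ± 4.96 CPM. The median of these cyclases was -0.06 without CLO replicate 3, -0.10 and -0.12 without control replicates 1 and 2 in turn, -0.43 without CLO replicate 1 and 0.20 against control replicate 3 alone.

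Around the kinase, 9 of 11 A-kinase anchoring proteins had lower values in CLO (median -0.39). Of these, 3 were lower at an unadjusted p under 0.05, against 7.26% of all genes tested. The median of the anchoring proteins was -0.10 with the length trend removed, -0.22 without CLO replicate 3 and -0.24 without control replicate 2. Akap5, which holds PKA and the phosphatase calcineurin at excitatory synapses, was at 47.6 ± 10.6 CPM in control and 30.4 ± 14.7 CPM in CLO. Akap12, a large scaffold for PKA and protein kinase C, was at 19.6 ± 9.47 and 11.04 ± 4.57 CPM. Akap8l, a nuclear relative of the anchoring proteins, was at 1.67 ± 0.391 and 0.432 ± 0.163 CPM, a log2 fold change of -1.94. It is among the 3 genes at that level, but its fold change rests on few reads. The CLO replicates held only 0.541, 0.245 and 0.511 CPM, and the adjusted p was 0.167 by edgeR. Among the inhibitors of the catalytic subunit, Pkia was at 164 ± 43.1 and 181 ± 21.5 CPM, Pkig at 67.9 ± 9.42 and 76.4 ± 8.04 CPM and Pkib at 6.35 ± 0.678 and 5.87 ± 0.892 CPM. In the list of 5 other PKA subunits and inhibitors 3 genes were lower (median -0.05, and 0.13 with the length trend removed) and 0 reached an unadjusted p under 0.05.

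The phosphodiesterases, which break down cAMP and so oppose the cyclases, had lower values in CLO in 14 of 16 genes (median -0.24). Of these, 4 were lower at an unadjusted p under 0.05, against 7.26% of all genes tested. The median of the phosphodiesterases was -0.09 with the length trend removed, -0.37 without control replicate 1 and -0.38 without CLO replicate 1. The calmodulin-activated Pde1c was at 3.87 ± 1.204 and 1.92 ± 0.350 CPM, Pde3a at 3.27 ± 0.435 and 1.97 ± 0.468 CPM, and Pde11a at 10.3 ± 2.09 and 6.85 ± 1.33 CPM. All 3 are minor transcripts here. The other gene at an unadjusted p under 0.05, Pde4a, was more abundant, at 87.6 ± 10.3 and 67.4 ± 9.91 CPM.

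Downstream, 9 of 10 CREB relatives, coactivators and salt-inducible kinases had lower values in CLO (median -0.24). Of these, 2 were lower at an unadjusted p under 0.05, against 7.26% of all genes tested. The median of the 10 was -0.11 without CLO replicate 3, -0.15 without control replicate 2, -0.38 without CLO replicate 1 and -0.02 against control replicate 3 alone. Ep300, a histone acetyltransferase that CREB recruits, was at 33.5 ± 11.25 CPM in control and 20.3 ± 5.83 CPM in CLO, and Crebbp, its close relative, at 32.1 ± 11.8 and 23.1 ± 5.36 CPM. Sik1, a kinase gene induced by CREB that restrains CREB coactivators, was at 12.6 ± 3.38 and 8.38 ± 2.40 CPM. The 21 CREB target genes were divided, with 13 lower and 8 higher (median -0.12). At an unadjusted p under 0.05, 5 were lower and 1 higher, where 7.26% and 6.18% of all genes tested were. With 1 library left out their median was lowest when control replicate 3 was omitted, at -0.27, and highest when CLO replicate 3 was, at -0.07, and it was 0.07 against control replicate 3 alone. The higher one was Bdnf, which encodes brain-derived neurotrophic factor. It was at 38.5, 31.6 and 37.0 CPM in the control replicates and 43.1, 50.1 and 48.1 CPM in the CLO replicates. The groups did not overlap, which held in that direction for 7.84% of all genes tested. The log2 fold change of Bdnf was 0.40 ± 0.15 (SE; unadjusted p = 0.0195, adjusted p = 0.316 by edgeR). Npas4, an activity-induced transcription factor, went the other way, at 5.80 ± 1.49 and 2.63 ± 1.48 CPM, as did Ppargc1a, a coactivator of mitochondrial genes, at 25.8 ± 6.09 and 16.5 ± 4.07 CPM.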

How the data were processed

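The authors deposited whole-number read counts per gene for 6 libraries and a TPM table with gene symbol, position and length, both read here as deposited. TPM values were recomputed from counts and length to within 0.0005. GRCm39, featureCounts 2.6.0, HISAT2 2.2.0 and cutadapt 2.9 are listed in the submitters' processing notes, without role or order. How reads were assigned is not given in the sources used here. Rows without gene annotation (1103 of 56514, 0.64% to 0.78% of counts) were left out. Genes kept by filterByExpr (16129) were scaled by TMM and tested with edgeR 4.0.16 (R 4.3.3), robust quasi-likelihood, two-sided, Benjamini-Hochberg over all genes, threshold 0.05. Levels are TMM-scaled CPM. Alternatives used DESeq2 1.42.0 and limma 3.58.1. Ratios of TPM were compared by exact permutation over libraries. Fits were tested on simulated data. Genes of the same strand that overlap Adcy2, Adcy9 or Prkar1b held at most 32 counts in all libraries together. Named genes were the 10 members, up to 3 genes with the smallest p per pathway list and others where a result turned on them. The list of other cAMP effectors enters the pathway totals and is otherwise not reported here. Members and lists were chosen with earlier results of these data known. Same-numbered libraries did not deviate together, and the numbers are not labelled as pairs.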

Additional observations from a re-analysis of the deposited data

How the results depend on the processing

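Across 16 other settings, Adcy1, Adcy2, Adcy8, Adcy9, Prkacb and Prkar2b had lower values in CLO, while Prkar1a, Prkar1b, Prkaca and Creb1 changed sign in at least 1. Prkar1a was at -0.0262 with sample quality weights, -0.0112 with no filter, -0.0361 to 0.0712 with 1 library left out, and -0.12 without control replicates 1 and 2 together and on log2(TPM + 1). Prkar1b was at 0.0198 with quality weights, 0.00554 with the length trend removed and -0.036 to 0.0325 with 1 library left out, Creb1 (-0.27 as reported) at 0.0337 with the length trend removed, and Prkaca at -0.0241 on log2(TPM + 1), a scale chosen after seeing the data. The cause was not tested. Calls over all genes were 204 by DESeq2, 3473 with quality weights, 699 with no filter and 0 to 2 with 1 library left out. Of the 10 genes, 4 passed with quality weights (Adcy1, Adcy8, Adcy9 and Prkacb, where 21.5% of all genes passed) and 1 with no filter (Adcy8). At an unadjusted p under 0.05 the count was 6 with quality weights, where 6193 of all 16129 genes were at that level. It was 1 to 5 with 1 library left out, where 847 to 3960 genes were. With replicate number as a block the count was 1 (Adcy8), where 1874 genes were. Without control replicates 1 and 2 together, control replicate 3 stands alone and is assumed to vary like the CLO libraries. In that fit Adcy9 was at -0.60 and Adcy8 at -0.21. The same-numbered libraries correlated at -0.157, -0.0948 and 0.277 in their deviations, so the numbers were not taken as pairs. The log2 difference in the regulatory to catalytic ratio was 0.0101 as reported and 0.148 on raw counts, not per length. It was -0.0321 to 0.0552 with 1 library left out and -0.0699 without control replicates 1 and 2 together. Without those 2 controls the calcium-stimulated share differed by 0.537 percentage points (-4.44 to -0.0448 with 1 left out). Adcy8, Prkar2b and Creb1 rest on 207 to 852 counts per library. Leaving libraries out kept the same 16129 genes.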
